A study of Mus musculus with 6 samples.

Results

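The enzymes that make, break down and read the cyclic nucleotides cAMP and cGMP were compared between early and late labelled cells of the Atoh1 lineage. The set was chosen by name. It holds every probe set of the array with a single gene symbol that starts with Adcy or Pde and a digit, or with Prkaca, Prkacb, Prkar, Prkg or Gucy, or that reads Nos1, Pkia, Pkib, Pkig, Rapgef3 or Rapgef4. This gave 137 of 45101 probe sets, which named 54 of 18194 genes; Rapgef4 had no such probe set in the table and was not analysed here. Pde12 and Pde4dip matched by name only: Pde12 is a phosphodiesterase of oligoadenylates and Pde4dip a scaffold protein of the centrosome and Golgi.

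Swiss Webster mouse embryos carried Atoh1-CreER, which makes an inducible Cre in cells that express the proneural factor Atoh1, and the RCE reporter, which turns on EGFP after recombination. Tamoxifen was given to the dam (4 mg per 35 g) at E10.5 for the early group or at E13.5 for the late group. All embryos were dissected at E14.5, and EGFP-positive cells of the rhombomere 1 and isthmus region were sorted, so that both groups shared genotype, strain and age and differed in the day of labelling and in the time from labelling to collection. Each group had 3 samples on 3 Affymetrix Mouse Genome 430 2.0 arrays; the number of arrays limits the precision, and nothing in the labels says that samples came from separate litters, so that p-values cover no more than the variation among these samples, and this may be technical.

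Adenylyl cyclases make cAMP from ATP under the control of G proteins, and soluble guanylyl cyclase makes cGMP when it binds nitric oxide. Phosphodiesterases hydrolyse one or both messengers, and each family has its own substrate and its own control, such as calcium and calmodulin for the PDE1 family or cGMP for PDE2A. cAMP releases the catalytic subunits of protein kinase A (PKA) from its regulatory subunits, the PKI proteins block the free catalytic subunit, and Epac proteins are a second class of cAMP receptor. In neurons the pathway acts on growth cones, synapses and transcription through CREB, and in granule cell precursors of the cerebellum PKA holds back hedgehog signalling by phosphorylating Gli factors.

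Each probe set gives a MAS5 signal in arbitrary units, and array medians lay between 97.7 and 112 units. Differences are early minus late on the log2 scale, with the standard error (SE) from limma, and a gene passed at a Benjamini-Hochberg adjusted p under 0.05 over all 23471 probe sets tested. Testing was limited to probe sets brighter than the array median on at least 3 of the 6 arrays, and each gene is represented by its brightest probe set (mean log2 signal over all arrays). In a bulk sample fewer cells of a type and less RNA per cell cannot be told apart. Early replicate 3 had an Xist signal of 166 units against at least 8141 on the other 5 arrays, and late replicate 3 had the Y-linked Eif2s3y at 14.06 units against at least 826 on the others, so each of these arrays had the signals of 1 sex and the others those of both; effects of leaving them out are given below. Of the Atoh1 lineage, 5 markers were above the array median on all 6 arrays, with every late array above the early ones. Atoh1 itself read 396.6 to 935.6 units on early against 6819 to 9733 units on late arrays, and the labelling selects on this gene. Pax6 and Barhl1 also passed toward the late group, at 7.29-fold and 4.89-fold, and Zic1 and Meis1 did not pass. Of 5 neuronal markers, Tubb3, Dcx and Stmn2 passed toward the early group at 2.23-fold, 2.08-fold and 2.36-fold. The other two did not pass: Snap25 differed by 0.56 (limma adjusted p = 0.0847), and Rbfox3 by -0.71 (adjusted p = 0.0607), with all late arrays above the early ones.

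Promoter sequence was looked at for the genes that moved, because the pathway ends on CREB, which binds the cAMP response element, and because Atoh1 binds E-boxes. RefSeq windows (GRCm38.p6) from 250 bases before to 50 after a transcription start were found for 42 of the 54 genes, 86 windows in all, some of which overlap. The short site TGACG (or CGTCA) lay in 22 of the 86 windows and in 20.81% of all 32851 windows in the table. The E-box CAGCTG lay in 20 of 86 and in 16.3% of all windows, and CAGATG (or CATCTG) in 18 of 86 and in 17.15%. Both strands were searched, and TGACG is contained in the full element TGACGTCA, which was found in 2 of 86 windows and in 1.79% of all. Genes that passed had 26 windows for those toward the early and 9 for those toward the late group. TGACG lay in 6 of the 26 and 1 of the 9, CAGCTG in 9 and 1, and CAGATG in 7 and 2. The full element was in none of them, but at 1.79% of all windows so few windows cannot show a lack of it. 3 windows are shown, those of Prkar1b (the largest difference toward the early group among genes above the array median on all 6 arrays), of Gucy1b1 (whose single window held all 3 short motifs) and of Pde1c (the largest difference toward the late group). For Prkar1b, with 5 windows, and Pde1c, with 3, the window with most matches is printed. Capitals mark the matches, and a match is only a description of these letters.
Prkar1b, chr5:139150654-139150953, minus strand: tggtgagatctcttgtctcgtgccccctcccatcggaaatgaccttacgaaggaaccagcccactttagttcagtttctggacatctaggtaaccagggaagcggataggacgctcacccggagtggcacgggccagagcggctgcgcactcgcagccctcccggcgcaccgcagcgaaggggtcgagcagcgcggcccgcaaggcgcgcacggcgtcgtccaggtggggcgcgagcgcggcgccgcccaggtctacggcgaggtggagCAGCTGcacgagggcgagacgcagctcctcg
Gucy1b1, chr3:82074662-82074961, minus strand: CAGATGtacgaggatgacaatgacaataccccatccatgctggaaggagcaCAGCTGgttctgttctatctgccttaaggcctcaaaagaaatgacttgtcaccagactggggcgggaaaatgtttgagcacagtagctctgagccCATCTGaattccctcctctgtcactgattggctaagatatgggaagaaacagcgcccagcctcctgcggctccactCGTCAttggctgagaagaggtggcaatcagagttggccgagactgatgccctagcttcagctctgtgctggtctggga
Pde1c, chr6:56362761-56363060, minus strand: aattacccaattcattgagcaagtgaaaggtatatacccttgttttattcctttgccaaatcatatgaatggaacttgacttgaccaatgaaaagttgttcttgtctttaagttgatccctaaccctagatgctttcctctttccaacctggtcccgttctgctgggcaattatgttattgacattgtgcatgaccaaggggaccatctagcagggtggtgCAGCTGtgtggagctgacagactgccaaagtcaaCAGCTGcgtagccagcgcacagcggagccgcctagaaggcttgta
The Prkar1b window had 1 match, CAGCTG, 20 bases after the start. The Gucy1b1 window had 4 matches, the CREB short site 28 bases before the start and E-boxes at 104, 199 and 250 bases before it. The Pde1c window had 2 matches of CAGCTG, 29 bases before and 6 bases after the start, and no short site.

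Over the whole set, more genes were higher in the early than in the late group. Of the 54 genes, 37 were tested by their representative, and of these 15 were higher in the early group, 3 were higher in the late group and 19 did not pass (limma, Benjamini-Hochberg adjusted p). Among all 11066 genes tested in the same way, 30.2% passed, 16.2% toward the early and 14% toward the late group. Of the 37, 10 passed toward the early group with at least 2-fold differences, where 12.2% of all tested genes did, and 3 toward the late group, where 10.1% did. Counted as probe sets, 77 of 137 were tested and 30 passed, 23 toward the early and 7 toward the late group, where 26% of all tested probe sets passed. The median difference over the 37 genes was 0.61, beside -0.09 over all tested probe sets. The 17 genes that were not tested had dim representatives, and 3 of the 77 tested probe sets were above the array median in no late array, so they entered through the early group alone and had to differ. They are the representative of Pde7b and second probe sets of Pde4b and Nos1. Those of Pde7b and Pde4b are among the 23 that passed toward the early group, and that of Nos1 did not pass. Without Pde7b, 14 of 36 genes were higher in the early group, 9 of them by at least 2-fold.

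**Figure D1:**
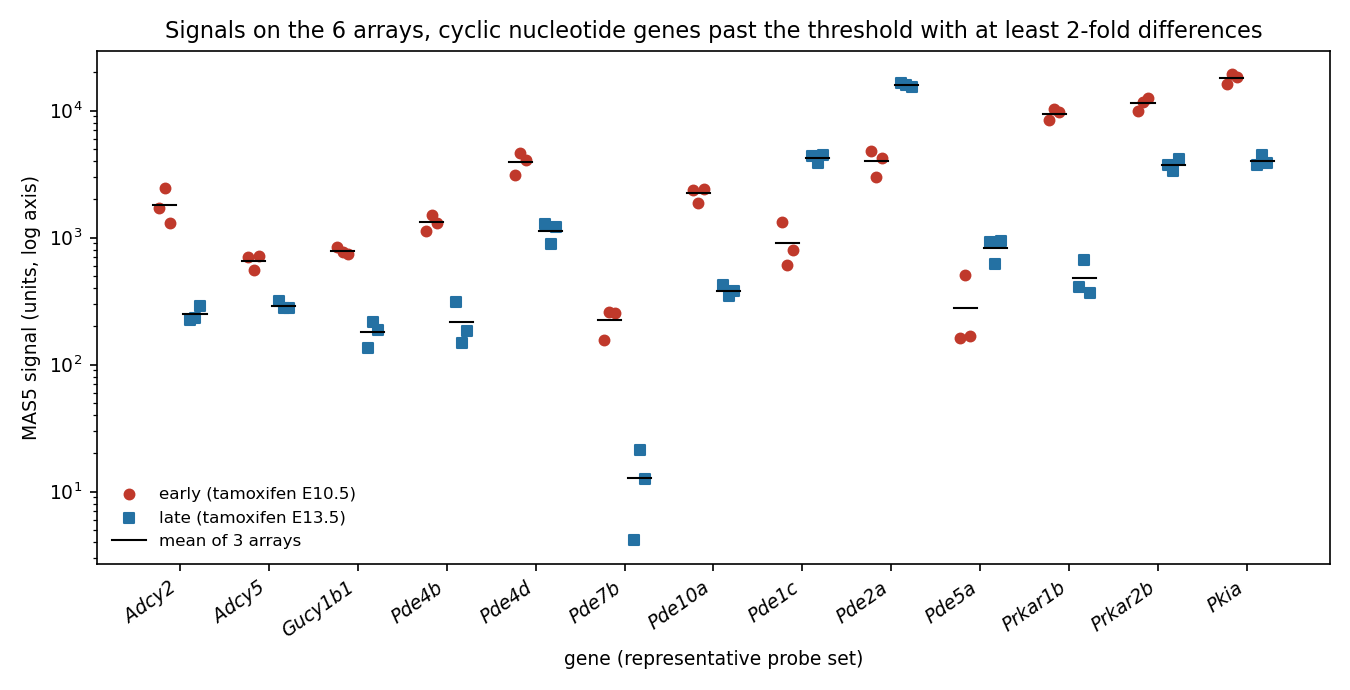
MAS5 signal (units, log axis) on each of the 6 arrays for the 13 genes that passed with a difference of at least 2-fold, by representative probe set; circles are early and squares late arrays, bars the mean of 3 arrays. Pde1c, Pde2a and Pde5a lie higher in the late arrays and the other 10 genes in the early arrays, and Pde7b is dim in the late group, at 4.144 to 21.44 units.

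The cAMP-making enzymes were higher in the early group where they passed. Of 10 adenylyl cyclase genes 8 were tested, 3 were higher in the early group (Adcy1, Adcy2 and Adcy5), none in the late group, and 5 did not pass; at an unadjusted p under 0.05 the late count was 0. Among all tested genes 16.2% passed toward the early and 14% toward the late group. Adcy2, a cyclase stimulated by G protein beta-gamma subunits, read 1704, 2445 and 1313 units in the early arrays and 222.8, 233.2 and 289.1 in the late arrays. The early arrays were thus all far above the late ones, and the difference was 2.84 ± 0.28 (SE), or 7.14-fold (limma adjusted p = 0.00196). Adcy5, a cyclase inhibited by Gi proteins and calcium, read 700, 557 and 721 units against 314.8, 278.4 and 280.2 units. The groups did not overlap, and Adcy5 was 2.25-fold higher in the early group (difference 1.17 ± 0.19, limma adjusted p = 0.00764), while its dimmer second tested probe set did not pass (0.60 ± 0.47). Adcy1, which calcium and calmodulin stimulate, read 1653, 1365 and 1798 against 886.2, 976.2 and 631.9 units. It passed with a 1.95-fold difference (limma adjusted p = 0.0304), a call that ended without early replicate 1 (0.0647) or 3 (0.0688) and without late replicate 1 (0.0817), 2 (0.0585) or 3 (0.102).

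The cyclases that did not pass gave smaller or more variable differences. Adcy9 read 557.7 to 928.5 units in the early arrays and 364.9 to 857.7 in the late arrays, and all 3 of its tested probe sets failed to pass. Adcy3, which is enriched in neuronal primary cilia, read 551.5, 407 and 432.9 against 262.6, 353.6 and 342.8 units (difference 0.54 ± 0.22, limma adjusted p = 0.122). Adcy6 varied widely among the early arrays, at 1197, 245.8 and 725.1 units against 388.2 to 455.4 units in the late arrays. It passed only when early replicate 2 was left out (limma adjusted p = 0.0338). On the same 3 early arrays the summed signals of 5 endothelial and pericyte markers were 1251, 507 and 2355 units (228 to 1456 in the late arrays), and their part in the Adcy6 values was not tested. Adcy8 was near the array median in both groups, at 123.8 to 285.4 against 92.53 to 132.1 units, and Adcy7 read 29.26 to 266.3 against 101.1 to 194.9 units (difference -0.69 ± 0.78). Adcy4 and Adcy10 were too dim to be tested.

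Of the nitric oxide and cGMP-making genes, the shared subunit of soluble guanylyl cyclase differed most. Gucy1b1, the haem-binding beta subunit that pairs with either alpha subunit, read 842.7, 767.2 and 745 units in the early arrays. In the late arrays it read 136.3, 215.8 and 186.4 units, all below the early arrays, and the difference was 2.15 ± 0.23, or 4.45-fold (limma adjusted p = 0.0023). A second Gucy1b1 probe set also passed toward the early group (1.54 ± 0.31). The alpha subunits did not pass: Gucy1a2 read 1120, 1035 and 1154 against 818.6, 742.8 and 940.2 units (difference 0.41 ± 0.18, limma adjusted p = 0.145), and Gucy1a1 639.6, 647.4 and 961.7 against 581.4, 522.2 and 557.3 units (0.41 ± 0.22, adjusted p = 0.223). In both the 3 early arrays lay above the late ones all the same. Nos1, the neuronal nitric oxide synthase, read 287.8, 247.9 and 292.3 against 122, 165.4 and 177.8 units. It passed at 1.8-fold (limma adjusted p = 0.0329), but not without early replicate 1 (0.0683) or 3 (0.07), nor without late replicate 1 (0.102), 2 (0.0866) or 3 (0.0723). The receptor guanylyl cyclases Gucy2c, Gucy2e and Gucy2g, known from gut, retina and olfactory or germ cells, were not above the median on any array.

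Phosphodiesterases passed in both directions: Pde4b, Pde4d, Pde7b and Pde10a were higher in the early group, and Pde1c, Pde2a and Pde5a in the late group. Of 23 phosphodiesterase genes, Pde12 and Pde4dip not counted, 12 were tested and 5 did not pass. Among the cAMP-specific families PDE4, PDE7 and PDE8, 4 of 7 genes were tested and 3 were higher in the early group, or 2 of 3 without Pde7b. Over all tested genes the shares were 16.2% toward the early and 14% toward the late group. Pde4b, of the rolipram-sensitive PDE4 family, read 1137, 1505 and 1312 units in the early arrays and 312, 148.8 and 185.2 units in the late arrays. All early arrays lay above the late ones, with a difference of 2.68 ± 0.31, or 6.39-fold (limma adjusted p = 0.00294). Pde4d, the other PDE4 gene tested, read 3119, 4664 and 4098 against 1283, 898.4 and 1216 units. Its groups were apart too, by 1.80 ± 0.24, or 3.49-fold (limma adjusted p = 0.00456), and its second tested probe set also passed toward the early group. The second tested Pde4b probe set was below the array median on all late arrays and adds no support.

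The PDE7 family was split between its members. Pde7b read 157, 258.6 and 255.1 units in the early arrays and 4.144, 21.44 and 12.56 in the late arrays, where it was below the array median throughout. It could be tested only because the early arrays were high. With late signals raised to the array median the difference was 2.12-fold. The fitted difference of 4.39 ± 0.61 (3.73 without late replicate 1, limma adjusted p = 0.00499) has no firm size. Both had to point to the early group, so neither the direction nor the p-value is read as support. Pde7a read 2549, 2322 and 1695 against 2552, 3356 and 2652 units and did not pass (difference -0.39 ± 0.23, limma adjusted p = 0.262). Its 6 tested probe sets all leaned toward the late group, from -0.85 to -0.39, and none passed. Pde4a, Pde8a and Pde8b were not tested by their representatives; Pde8a, a high-affinity cAMP enzyme, read 106.8, 12.79 and 249.1 against 10.62, 17.29 and 44.17 units.

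Among the enzymes that hydrolyse both messengers, Pde10a had its higher signals in early cells, and Pde1c and Pde2a in late cells. Pde10a, best known from striatal neurons, read 2389, 1870 and 2433 units in the early arrays and 422, 345.2 and 381.5 in the late arrays. It was 5.8-fold higher in the early group (2.54 ± 0.20, limma adjusted p = 0.00131), but a dimmer tested probe set, at 100.7 to 208.3 units, leaned the other way without passing (-0.37 ± 0.28). Pde1c, which calcium and calmodulin stimulate, read 1328, 605.1 and 800.6 units against 4390, 3884 and 4479 units. All late arrays were clear of the early ones, and the difference of -2.30 ± 0.31 corresponds to 4.92-fold (limma adjusted p = 0.00461). Of 4 tested Pde1c probe sets 3 passed toward the late group, and the fourth gave -3.44 ± 1.05 (adjusted p = 0.0573).

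Pde2a, the enzyme that cGMP stimulates to break down cAMP, was higher in the late group. It read 4783, 3005 and 4255 units on early against 16660, 15840 and 15360 units on late arrays. The late arrays were close to each other and clear of the early ones, by -2.02 ± 0.23, or 4.05-fold (limma adjusted p = 0.00265). A second probe set gave 7.97-fold in the same direction (adjusted p = 0.00246), and the third, at 392.3 to 617.5 units on all arrays, did not pass (-0.11 ± 0.27). Pde3b, which cGMP inhibits, read 1562, 504.3 and 1591 against 2242, 2579 and 2351 units, and the difference did not pass (-1.15 ± 0.47, limma adjusted p = 0.123). Pde1b read 248.2 to 402.4 against 273.9 to 374.7 units, with overlapping groups (0.07 ± 0.25). Pde1a, Pde3a and Pde11a were too dim to be tested.

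Pde5a, the cGMP-specific enzyme that sildenafil inhibits, was higher in the late group. It read 161.7, 509.8 and 169.5 units in the early arrays and 924.7, 623.9 and 936.9 in the late arrays, so that early replicate 2 came near the lowest late array. The difference was -1.76 ± 0.49, or 3.38-fold (limma adjusted p = 0.0428), and a second probe set passed at 3.85-fold while the remaining one did not (adjusted p = 0.0557). The representative's call ended without early replicate 1 (adjusted p = 0.0986) or 3 (0.0998), without late replicate 1 (0.13), 2 (0.0825) or 3 (0.134), and under quantile normalization (0.0522). Pde9a, a high-affinity cGMP enzyme, read 220.5 to 430.9 against 226.1 to 250.4 units and did not pass. Pde6d, a carrier of prenylated proteins first found with the photoreceptor enzyme, read 724.4, 1085 and 1114 against 643.6, 707.1 and 672.4 units, a difference of 0.51 ± 0.23 that passed only without early replicate 1 (limma adjusted p = 0.0424). The retinal subunits Pde6a, Pde6b, Pde6c, Pde6g and Pde6h were dim in both groups.

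**Figure D2:**
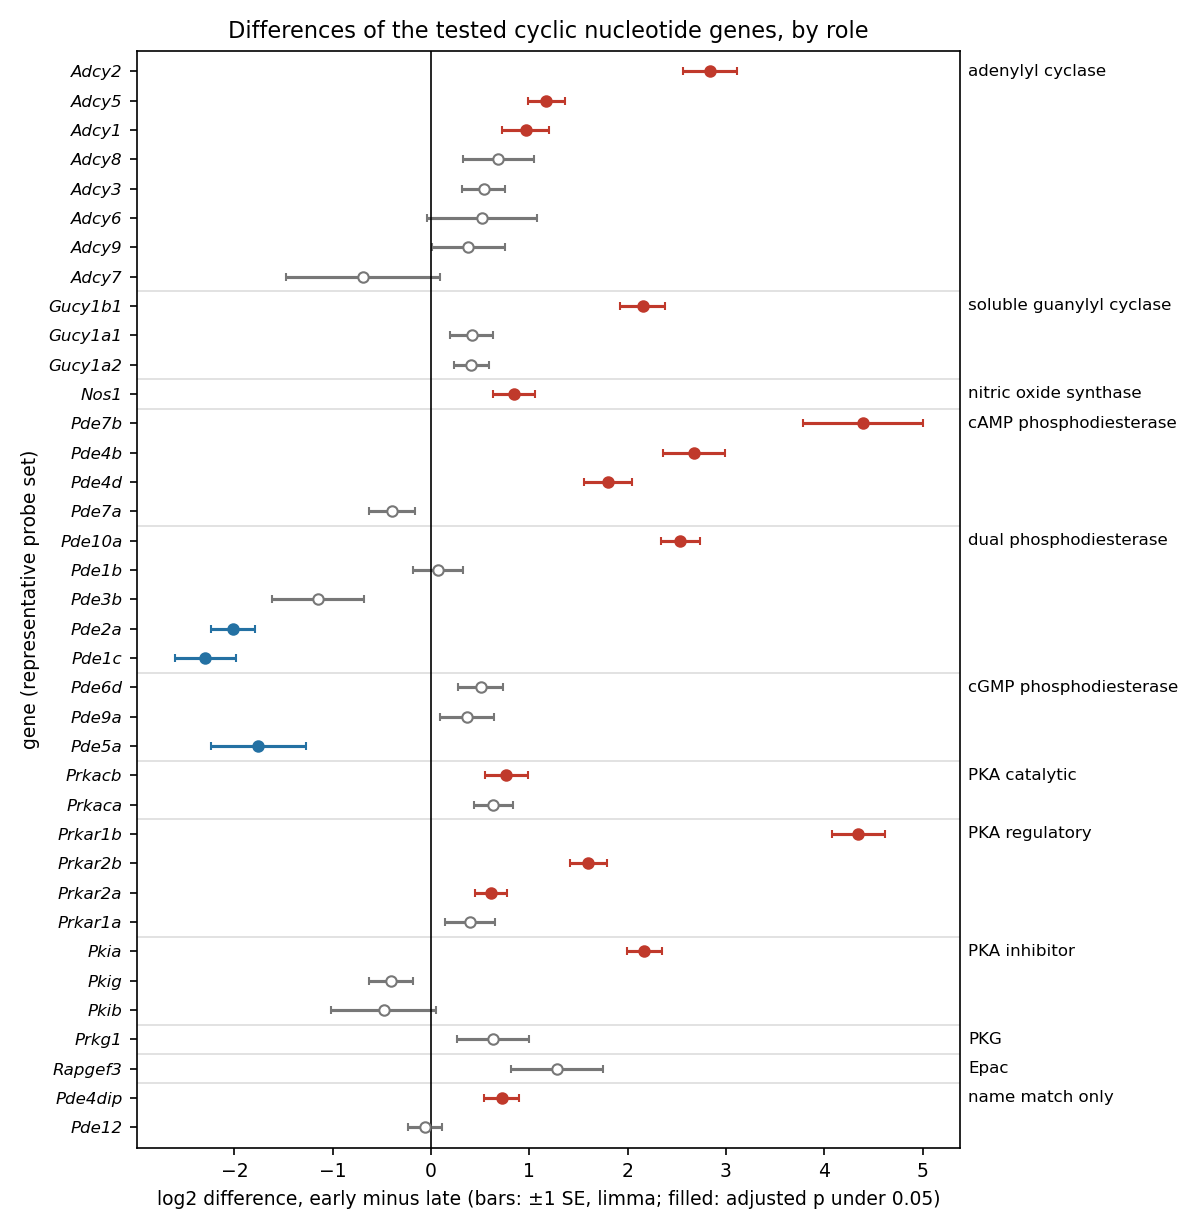
Log2 difference, early minus late, of the 37 tested genes by representative probe set, ordered by role; bars are 1 SE from limma and filled points passed an adjusted p of 0.05. 15 filled points lie on the early side and 3, those of Pde2a, Pde1c and Pde5a, on the late side; Pde4dip and Pde12 match by name only.

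PKA subunits were higher in the early group for 4 of 6 genes, Prkar1b, Prkar2b, Prkar2a and Prkacb, and none was higher in the late group (at an unadjusted p under 0.05, 0). Of all tested genes 16.2% passed toward the early and 14% toward the late group. Prkar1b, the neuronal type I regulatory subunit, read 8458, 10230 and 9757 units in the early arrays and 405.3, 668.2 and 369.5 in the late arrays. The groups lay far apart, and the fitted difference was 4.35 ± 0.27, or 20.4-fold (limma adjusted p = 0.0011). All 4 tested Prkar1b probe sets passed, from 2.81 to 4.35. The representative is of a type that can cross-hybridise, and the only tested probe set of another type gave 3.10 ± 0.25, or 8.56-fold. Prkar2b, the type II subunit abundant in brain, read 9855, 11710 and 12670 against 3740, 3352 and 4178 units. It was 3.03-fold higher in the early group (1.60 ± 0.19, limma adjusted p = 0.00321) with no overlap between the groups; 2 of its 3 tested probe sets passed. The other pair of regulatory subunits is expressed in most tissues. Prkar2a read 4012, 4293 and 3681 against 2664, 2530 and 2657 units, a 1.52-fold difference (limma adjusted p = 0.041) that was lost without early replicate 1 (0.0693) or 2 (0.0681) and without late replicate 1 (0.118), 2 (0.138) or 3 (0.134). Its other tested probe set did not pass (0.417 ± 0.165, limma adjusted p = 0.115). Prkar1a read 1644, 2288 and 1890 against 1447, 1150 and 1878 units and did not pass (0.40 ± 0.25, limma adjusted p = 0.292).

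The catalytic subunits, which carry the kinase activity, lay just on either side of the threshold. Prkaca read 8325, 9741 and 8152 against 6627, 5402 and 4947 units, with early above late on every array, and did not pass (0.63 ± 0.20, limma adjusted p = 0.0595). It passed under quantile normalization (0.0457), with the floor (0.0446), with a filter at the 70th percentile (0.0288) and with an intensity trend and robust settings (0.00992). A dimmer Prkaca probe set had overlapping groups and did not pass (0.18 ± 0.21, limma adjusted p = 0.566). Prkacb read 1292, 1253 and 1852 against 814.6, 931.6 and 805.4 units and passed at 1.7-fold (0.77 ± 0.22, adjusted p = 0.048). That call was lost without early replicate 1 (0.0609) or 3 (0.0761), without late replicate 1 (0.143), 2 (0.108) or 3 (0.156) and with median centring (0.0585), and a dimmer Prkacb probe set leaned the other way (-0.40 ± 0.67).

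Of the 3 PKI inhibitor genes only Pkia passed. Pkia read 16270, 19430 and 18390 units on early against 3737, 4453 and 3847 units on late arrays. Its groups were far apart, and the difference was 2.17 ± 0.18, or 4.49-fold (limma adjusted p = 0.00144); a dimmer Pkia probe set gave 0.88 ± 0.29 (adjusted p = 0.0708). Pkig read 1520, 2426 and 1764 against 2525, 2516 and 2379 units (-0.41 ± 0.22, limma adjusted p = 0.231), and Pkib 55.36 to 176 against 87.6 to 221.5 units (-0.48 ± 0.53); neither passed.

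The other receptors of the messengers did not pass. Prkg1, a cGMP-dependent kinase, read 278, 614.2 and 356.9 against 182.9, 290.6 and 310.9 units (0.63 ± 0.37, limma adjusted p = 0.254), and Prkg2 was not tested. Rapgef3, which encodes Epac1, read 467.9, 451.5 and 202.6 against 211.1, 162.6 and 86.14 units, with overlapping groups (1.29 ± 0.47, limma adjusted p = 0.092). Its 3 tested probe sets leaned the same way, from 1.29 to 1.41, and the representative passed without early replicate 3 (adjusted p = 0.0418). Of the genes matched by name only, Pde4dip read 1978, 2502 and 2260 against 1417, 1409 and 1253 units and passed at 1.65-fold (limma adjusted p = 0.0322), and a second probe set passed at 2.89-fold. The remaining tested Pde4dip probe set had overlapping groups and did not pass (0.32 ± 0.21, limma adjusted p = 0.314). The Pde4dip call was lost without early replicate 2 (0.0572) or 3 (0.0608), without late replicate 1 (0.0929), 2 (0.0973) or 3 (0.129) and with median centring (0.0693). Pde12 read 805.6 to 1007 against 892.3 to 992.9 units and did not pass.

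Several genes had more than 1 probe set, which gives a check within the arrays. For 24 genes at least 2 probe sets were tested, and in 13 all had the same call. Among these, all probe sets passed for Gucy1b1, Pde4b, Pde4d and Prkar1b, and none passed for the rest. The calls differed for Adcy5, Nos1, Pde10a, Pde1c, Pde2a, Pde4dip, Pde5a, Pkia, Prkacb, Prkar2a and Prkar2b, where at least 1 probe set did not pass. In 20 of the 24 all had the same sign, and in none did 2 probe sets pass in opposite directions. The second probe sets of Pde4b and Nos1 entered through the early group alone and had to lean that way. Pde4b and Nos1 are therefore no check here. The genes with both signs were Pde10a, Pde12, Prkacb and Prkar1a, and in each no probe set of the minority sign passed.

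**Figure D3:**
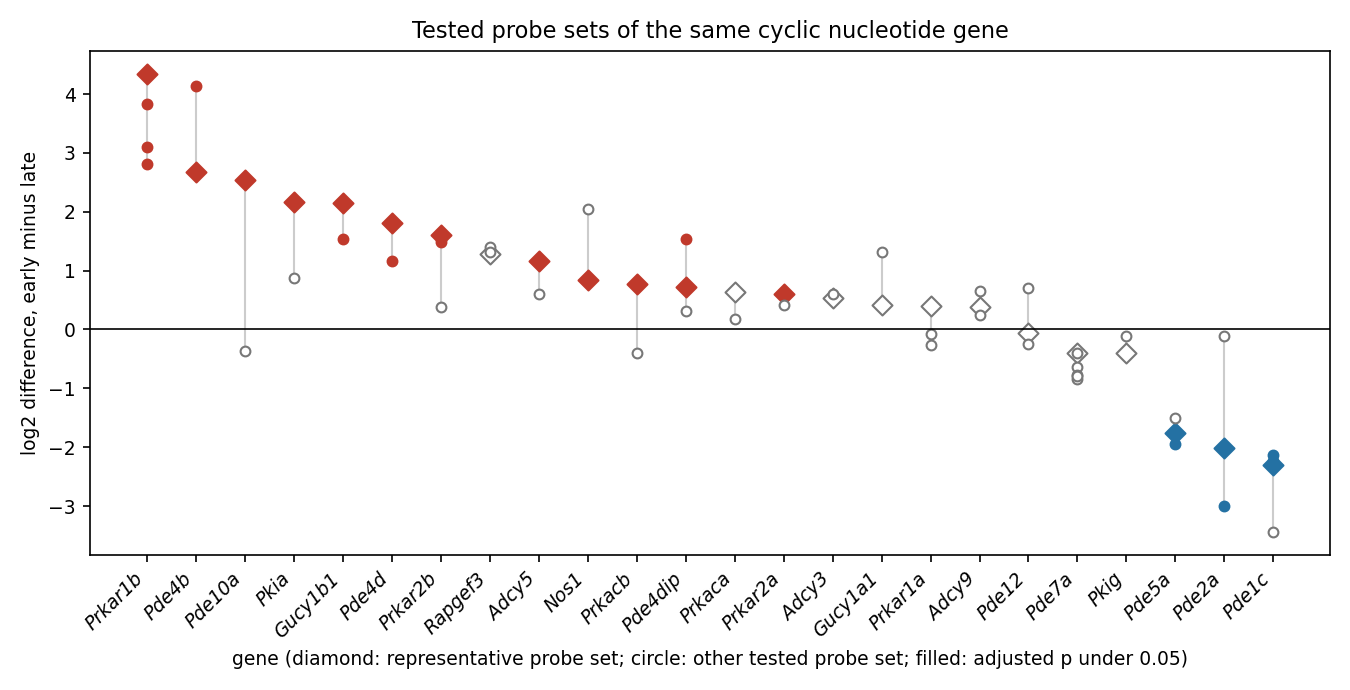
Log2 difference, early minus late, of each tested probe set for the 24 genes with at least 2; diamonds are representatives, circles other probe sets, filled points passed an adjusted p of 0.05. The 4 probe sets of Prkar1b lie between 2.81 and 4.35, and those of Pde10a and Pde2a spread widest among genes whose representative passed, from -0.37 to 2.54 and from -2.995 to -0.11.

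Related genes that did different things were compared within each array, which removes any scaling of the array as a whole. The 6 pairs were chosen after their values were seen, and only the shift between groups is read, since the zero point depends on the probe sets. The log2 ratio of Prkar1b over Prkar1a was 2.36, 2.16 and 2.37 in the early arrays and -1.84, -0.78 and -2.35 in the late arrays, a shift of 3.95. The ratio of Pkia over Pkig shifted by 2.57, from 0.69 ± 0.13 in the late to 3.27 ± 0.23 in the early arrays (SD, n = 3). Gucy1b1 over Gucy1a2, a beta subunit against a partner alpha subunit, shifted by 1.74, from -2.24 ± 0.41 to -0.49 ± 0.12. Prkar2b over Prkar2a shifted by 0.99 and Pde7b over Pde7a by 4.79, or by 1.47 with the floor at the array median, since late Pde7b was dim. Pde1c over Pde1b went the other way, by -2.37, with 1.39 ± 0.46 in the early and 3.76 ± 0.34 in the late arrays. The groups did not overlap for any pair, and no test is given because the pairs were picked for their differences.

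**Figure D4:**
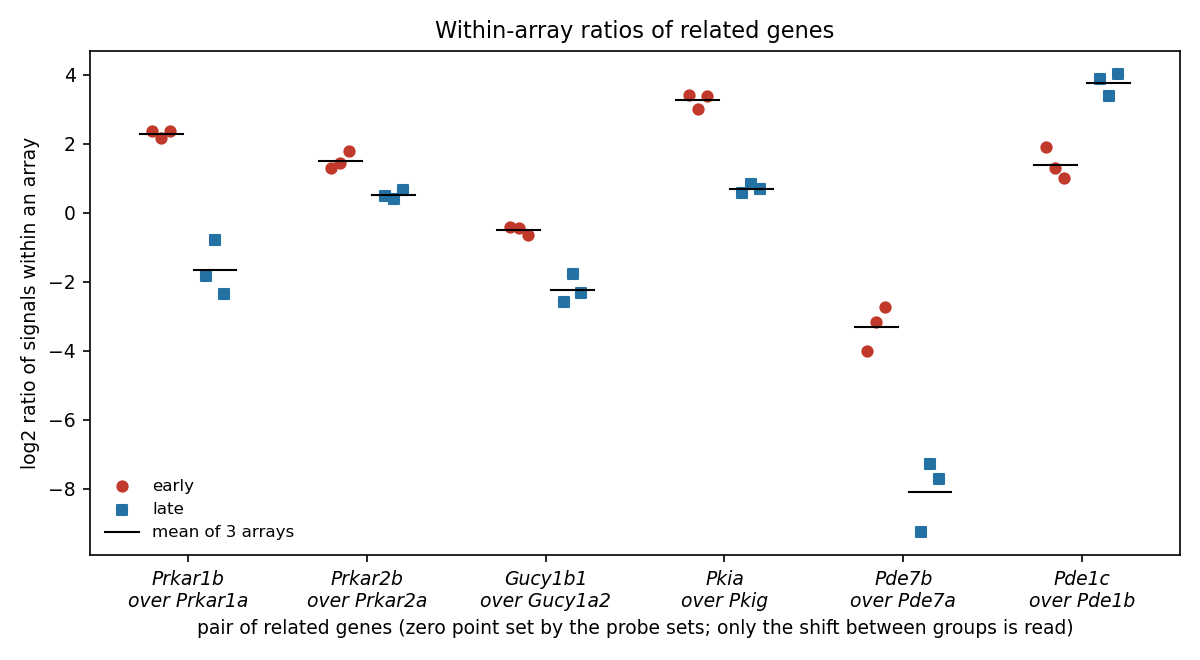
Log2 ratio of the signals of related genes within each array, for 6 pairs; circles are early and squares late arrays and bars the mean of 3 arrays. Early and late arrays are apart in each pair, with a shift of 3.95 for Prkar1b over Prkar1a and the opposite direction for Pde1c over Pde1b (-2.37). The low late points of Pde7b over Pde7a rest on dim Pde7b signals.

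The genes around these enzymes were read from a list of 84 receptors, G proteins, PKA anchors, effectors and nitric oxide or natriuretic peptide genes, of which 71 had a single-symbol probe set and 45 were tested. Of these 17 passed toward the early and 2 toward the late group, and 26 did not pass, beside 16.2% and 14% of all tested genes; their median difference was 0.50. Among G proteins and receptors 9 of 17 passed toward the early and 1 toward the late group. Gnal, the olfactory and striatal relative of the stimulatory alpha subunit, read 990.6, 1678 and 1065 against 241.8, 151.7 and 44.62 units, or 10.3-fold (limma adjusted p = 0.0128), a log2 difference of 3.36 that was 2.66 without late replicate 3 and 2.97 with the floor. Gnai1, an inhibitory alpha subunit, read 9400, 10250 and 9933 against 2099, 2224 and 1928 units, or 4.74-fold (adjusted p = 0.00119), and Gng2, a gamma subunit, was 4.5-fold higher in the early group. Gnai2 and Gnai3 did not pass and leaned to the late group, by -0.49 ± 0.18 and -0.78 ± 0.24 (limma adjusted p = 0.0942 and 0.0566). The related alpha subunits Gnao1 and Gnaz passed toward the early group, at 3.05-fold and 2.96-fold (limma adjusted p = 0.016 and 0.00286). The Gnao1 call was lost without late replicate 3 (0.0536). Gnas, the stimulatory subunit itself, read 17450 to 19150 against 12810 to 13250 units and did not pass (adjusted p = 0.0621). Cxcr4, a chemokine receptor coupled to Gi, read 390.7, 348 and 859.2 against 3703, 3112 and 2848 units and was the sole member of this role higher in the late group (6.55-fold, limma adjusted p = 0.00486). Gpr161, a ciliary receptor that raises cAMP and restrains hedgehog signalling, read 644.1, 766.8 and 1244 against 474.7, 485.9 and 314.8 units and did not pass (1.03 ± 0.32, adjusted p = 0.0605).

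Anchors hold PKA at its targets, and 4 of 10 passed toward the early and 1 toward the late group. Beside these and the effectors below, 16.2% and 14% of all tested genes passed toward the early and late group. Toward the early group, Akap7 differed by 2.35-fold, Akap12 by 2.2-fold and Akap11 by 2.05-fold (limma adjusted p = 0.0254, 0.0177 and 0.00792), and Akap13 was 2.18-fold higher in the late group (adjusted p = 0.0112). The call of Akap7 was lost without early replicate 2 (0.0535) or 3 (0.0545) or late replicate 2 (0.0864) or 3 (0.097), that of Akap12 without late replicate 1 (0.0711) or 3 (0.0754), and that of Akap13 without late replicate 3 (0.0542). Of 15 tested effectors 4 passed toward the early group and none toward the late group (at an unadjusted p under 0.05, 1 gene in the late group). Rap1gap, which switches off the Epac target Rap1, read 632, 1005 and 855.9 against 64.93, 54 and 103.7 units, 11.4-fold apart (limma adjusted p = 0.00163). Its late signals were above the array median on 1 array, and with the floor the difference was 7.83-fold. The PKA-regulated phosphoprotein gene Arpp21 was 2.34-fold higher (adjusted p = 0.00753) and Ppp1r1a, a phosphatase inhibitor, 1.88-fold (0.0252). The Ppp1r1a call was lost without early replicate 2 (0.0505) or 3 (0.0564) or late replicate 1 (0.0806), 2 (0.0629) or 3 (0.103). Creb1, the transcription factor at the end of the pathway, read 3695, 3014 and 4517 against 5345, 5470 and 5626 units and did not pass (-0.57 ± 0.21, adjusted p = 0.0919). With an intensity trend and robust settings in limma, Creb1 (adjusted p = 0.0252), Gnas (0.00365), Gpr161 (0.0322), Gnai2 (0.0219) and Gnai3 (0.0114) did pass. None of 3 tested nitric oxide and natriuretic peptide genes passed; 1 of the 3, Npr2, a receptor guanylyl cyclase for C-type natriuretic peptide, read 414.4 to 499.2 against 297.8 to 541.2 units (at an unadjusted p under 0.05 the count was also 0).

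**Figure D5:**
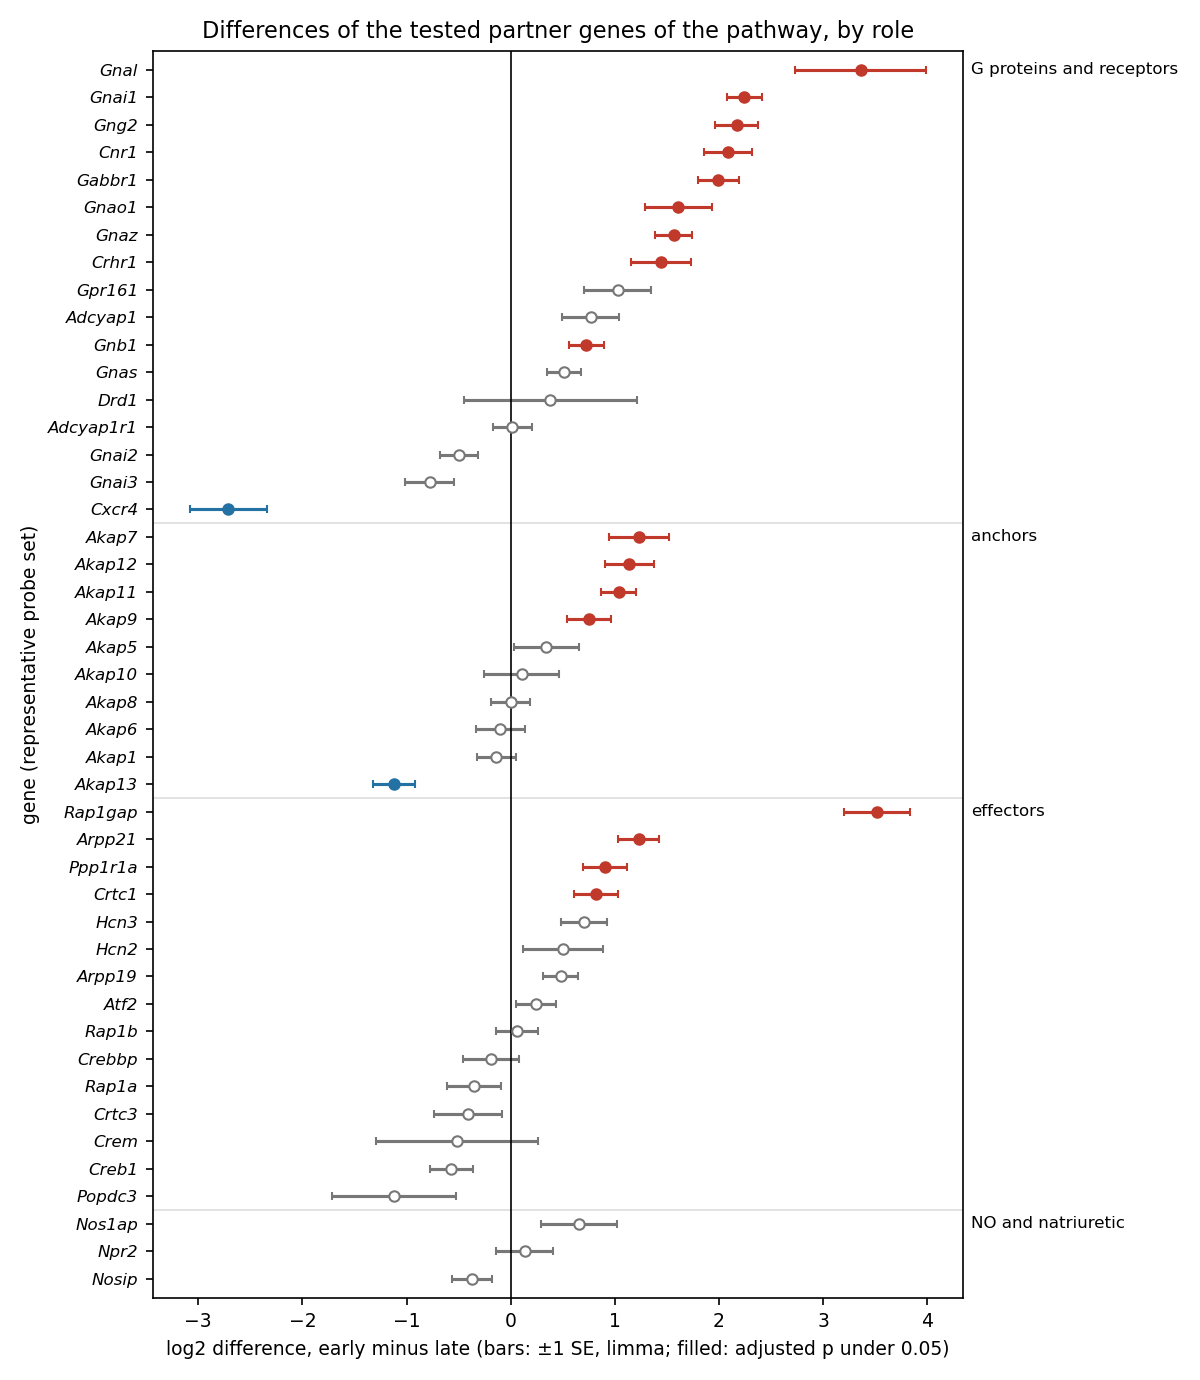
Log2 difference, early minus late, of the 45 tested genes that act with the cyclic nucleotide enzymes, by role; bars are 1 SE from limma and filled points passed an adjusted p of 0.05. 17 filled points lie on the early side, with Rap1gap and Gnal, both with dim late signals, the farthest as fitted, and 2 on the late side, Cxcr4 at -2.71 and Akap13 at -1.12.

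Markers of other cells moved with some of these results. All 3 measured markers of Purkinje and other GABA neurons, Gad1, Gad2 and Calb1, were higher in the early group, with summed signals of 1560 to 2672 against 276 to 416 units, beside the higher Pde10a, Gucy1b1 and Prkar1b; their part in these results was not tested. Of the microglia list 1 of 5, Csf1r, was higher in the early group (summed signals 386 to 1081 against 237 to 334 units), while C1qa stayed between 3.07 and 9.563 units on all arrays. Endothelial and pericyte markers overlapped between the groups (507 to 2355 against 228 to 1456 units), and 2 of the 5, Pecam1 and Cdh5, were never above the array median. Of 5 oligodendrocyte lineage genes tested, 2 (Olig1 and Olig2) passed toward the early and 1 (Pdgfra) toward the late group, with summed signals of 3409 to 3883 against 1519 to 2037 units. Of 3 tested genes of astrocytes and radial glia, 2 (Fabp7 and Aldh1l1) passed toward the early and 1 (Slc1a3) toward the late group. Aldh1l1 was below the array median on all late arrays, so it entered through the early group alone. With the floor at the array median it did not pass (limma adjusted p = 0.0839). The 1 meningeal gene tested, Col1a2, did not pass, and neither measured red blood cell gene was above the array median on any array. The Actb 3′ to 5′ signal ratio, a sign of RNA quality, spanned 17.4 to 26.2 on early against 12.9 to 16.1 on late arrays, while that of Gapdh overlapped (10.6 to 13.2 against 9.47 to 12.1), and their part was not tested. Of the 18 genes that passed, 12 also passed in each of the 6 fits that leave out 1 array. Without both arrays of 1 sex, early replicate 3 and late replicate 3, 6 genes were still higher in the early group (Adcy2, Gucy1b1, Pde10a, Pkia, Prkar1b and Prkar2b) and 1, Pde2a, in the late group. In that fit Pde4b (adjusted p = 0.053), Pde4d (0.0608), Pde7b (0.0639), Pde1c (0.0685) and Adcy5 (0.0903, all limma) no longer passed, beside the 6 genes whose calls ended with single arrays. Those 6 calls also ended without the filter on dim probe sets (adjusted p from 0.119 to 0.181), as did that of Adcy5 (0.0507). The Nos1 call also ended with array weights (0.0569) and with an intensity trend (0.0731), and that of Prkar2a with median centring (0.102).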

How the data were processed

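Intensities on 6 arrays, 1 MAS5 signal per probe set, were used as deposited; MAS5 is named in the submitters' processing notes, with no version, detection call or pooling stated in the labels. Gene names came from the platform annotation (34958 probe sets with 1 symbol, 932 with several, 9211 with none), and 64 control probe sets were left out. Signals below 1 unit (1490, of which 1 belonged to a probe set of these genes) were raised to 1 before log2. In R 4.3.3, limma 3.58.1 (lmFit and eBayes with 2.26 prior df) compared the groups, two-sided, and was tested on simulated data. Every array value is printed for genes of the set that passed with at least 2-fold differences. For genes of the set that were tested and did not pass, the array values or their range in each group are printed. Partner genes are named for the 3 largest differences per role and direction. Gpr161, Gnas, Gnai2, Gnai3, Gnao1, Gnaz, Creb1 and Npr2, like the 6 ratio pairs, were chosen after their values were seen. The set, the lists, the markers and the alternatives were chosen with earlier results of these data known. Same-numbered arrays of the groups did not deviate together (correlations -0.029, -0.075 and -0.006).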

Additional observations from a re-analysis of the deposited data

How the results depend on the processing

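Among the 18 genes that passed, 7 (Adcy2, Gucy1b1, Pde10a, Pde2a, Pkia, Prkar1b and Prkar2b) passed in all alternative fits run, and over the 37 tested genes 506 of 583 alternative values kept direction and side of the threshold. The numbers do not pair the arrays; with the replicate number as a block 19 and 5 probe sets of the set, 11 and 2 of its genes, 2006 and 1588 of all probe sets and 10 and 1 partner genes passed toward the early and late group, respectively. Signals floored at the array median gave 12 probe sets of the set higher in the late group, and an intensity trend with robust settings gave 11, with 5 partner genes. Median centring gave 20 and 10 probe sets of the set. Among genes that passed, the representatives of Prkar1b, Prkar2b, Pde2a and Pde5a are of probe set types that can cross-hybridise. Without these types 19 and 5 probe sets and 15 and 3 genes of the set passed. Without the filter 9 genes of the set, 1566 of all probe sets and 10 partner genes were higher in the early group, and 1169 probe sets in the late group. At an adjusted p of 0.01, 15 and 4 probe sets of the set, 1452 and 986 of all and 8 and 1 partner genes remained. Without early replicate 3 and late replicate 3 the counts were 11 and 4 probe sets and 6 and 1 genes of the set, 845 and 661 of all probe sets, and 6 and 1 partner genes. Leaving out single arrays, with the same probe sets tested, gave 16 to 21 and 4 to 9 probe sets of the set, 10 to 14 and 2 to 3 genes, 1783 to 2892 and 1162 to 2989 of all probe sets, and 9 to 15 and 1 to 2 partner genes; the 7 late probe sets became 4 without late replicate 1, 2 or 3. Without early replicate 1 the late probe sets of the set rose to 9. A stricter threshold lowers counts by construction; the other causes were not tested. The sign turned only in genes that did not pass. Adcy7 gave 0.029 with the floor, 0.17 without early replicate 3 and late replicate 3, and -1.47 to 0.12 without single arrays. Without early replicate 3 and late replicate 3, Adcy9 gave -0.10, Pde12 0.06 and Pde1b -0.17, and without single arrays Adcy9 gave 0.06 to 0.67, Pde12 -0.14 to 0.02 and Pde1b -0.07 to 0.28. The 6 within-array ratios kept their sign in all fits run. Dim late signals limit the folds of Pde7b, Rap1gap and Gnal.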

Other observations

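Some probe sets were too dim to be tested and still had groups that did not overlap. Only a part of them is given here, as values only. The representative of Prkg2, a membrane-bound cGMP-dependent kinase, read 85.35, 155.5 and 181.7 units on early against 42.54, 72.42 and 70.94 units on late arrays. A dim Pde10a probe set read 284.1, 82.3 and 176.6 against 17.05, 15.2 and 30.56 units, in the direction of the gene's representative. A dim Prkar1b probe set read 90.87, 106.2 and 49.95 against 4.254, 3.484 and 7.72 units, also in the direction of the tested ones. Toward the late group, a dim Pde1c probe set read 25.44, 20.58 and 30.71 against 106.3, 105.6 and 109.6 units. A very dim Pde4b probe set read 1.622, 1.89 and 2.143 against 3.472, 3.537 and 3.589 units, opposite to the gene's representative.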
